A study of Arabidopsis thaliana with 15 samples.

Results

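Gene-body peaks are peaks of MYB3R chromatin immunoprecipitation and sequencing (ChIP-seq) whose summit lies well inside a protein-coding gene. A peak was taken when its summit on chromosomes 1 to 5 lay inside a coding gene, more than 200 bp from both of its ends. It was left out when the summit was also within 1000 bp outside the end of another coding gene. By this rule 3871 of 42664 nuclear peaks in 8 ChIP libraries were gene-body peaks, which is 9.07%. They fell in 2121 genes, which is 9.09% of the 23336 coding genes with at least 1 base that satisfies the rule. For comparison, gene-end peaks (33730) had their summit within 1000 bp outside or 200 bp inside a gene end and were not gene-body peaks, and 5063 peaks lay farther from coding genes. A summit inside 2 overlapping genes was counted for both, which concerned 60 gene-body peaks.

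MYB3R proteins are plant MYB transcription factors with several MYB repeats, related to animal B-MYB. They are known for binding a short element near the starts of genes of mitosis and cytokinesis. MYB3R4 is known as an activator of these genes at the transition from G2 to M phase, and MYB3R1 as both an activator and a repressor. Sites of such a factor are therefore usually looked for near gene starts. Peaks inside gene bodies are the part of the binding map that a window at gene starts leaves out.

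Inflorescence meristems were dissected shortly after bolting from long-day plants of Arabidopsis thaliana. All plants were of the Col0 background and carried 1 transgene. The groups were pMYB3R1::GFP-MYB3R1 (3 ChIP libraries), pMYB3R4::GFP-MYB3R4mNES (2) and pMYB3R4::GFP-MYB3R4 (3), each driven by the promoter of the gene it carries. The labels do not spell out the suffix mNES and do not say whether the endogenous genes were intact, nor how many lines each group stands for. Chromatin was precipitated with an antibody against GFP (ab290) in all 8 libraries, and no ChIP of untagged plants was among the samples. Whether the replicates are separate plant samples is not stated, and a p-value therefore measures only the spread between these libraries. Peaks give no expression values, so the tissue label was not checked against marker genes. Libraries also fall into 2 sets by how the submitters named them. MYB3R1 and MYB3R4 replicates 1 and 2 form set A, and the other 4 libraries form set B. Part of the libraries were made in-house and part by a company, but which ones is not stated, so the sets were only treated as a possible batch.

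Gene-body peaks were a small share of the peaks in every group. On the full lists the groups overlapped. Without a stretch of chromosome 2 described further on, a cut chosen after the values were seen, they did not. With all peaks within 2 Mb of centromeres left out, MYB3R1 and MYB3R4 still overlapped. The lists held 1018, 1666 and 810 gene-body peaks in MYB3R1 replicates 1, 2 and 3. There were 22 and 24 in MYB3R4mNES replicates 1 and 2, and 73, 198 and 60 in MYB3R4 replicates 1, 2 and 3. As a share of nuclear peaks this was 8.87%, 8.48% and 11.4% in MYB3R1, 9.69% and 9.38% in MYB3R4mNES, and 9.29%, 7.29% and 13.2% in MYB3R4. These shares overlap between the groups, while the MYB3R1 lists are the longest. The mean share was 9.59% ± 1.60 in MYB3R1 (SD, n = 3), 9.53% ± 0.224 in MYB3R4mNES (SD, n = 2) and 9.91% ± 2.98 in MYB3R4 (SD, n = 3). MYB3R1 minus MYB3R4 was -0.320 points (two-sided exact permutation test, p = 0.80, where 0.10 is the smallest possible). MYB3R4mNES minus MYB3R4 was -0.378 points (exact permutation test, two-sided, p = 1.0, where 0.20 is the smallest possible). Both comparisons use the same MYB3R4 libraries. Within set A the shares of MYB3R1 were 8.87% and 8.48%, against 9.29% and 7.29% in MYB3R4. Within set B they were 11.4% in MYB3R1, 9.69% and 9.38% in MYB3R4mNES, and 13.2% in MYB3R4.

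**Figure D1:**
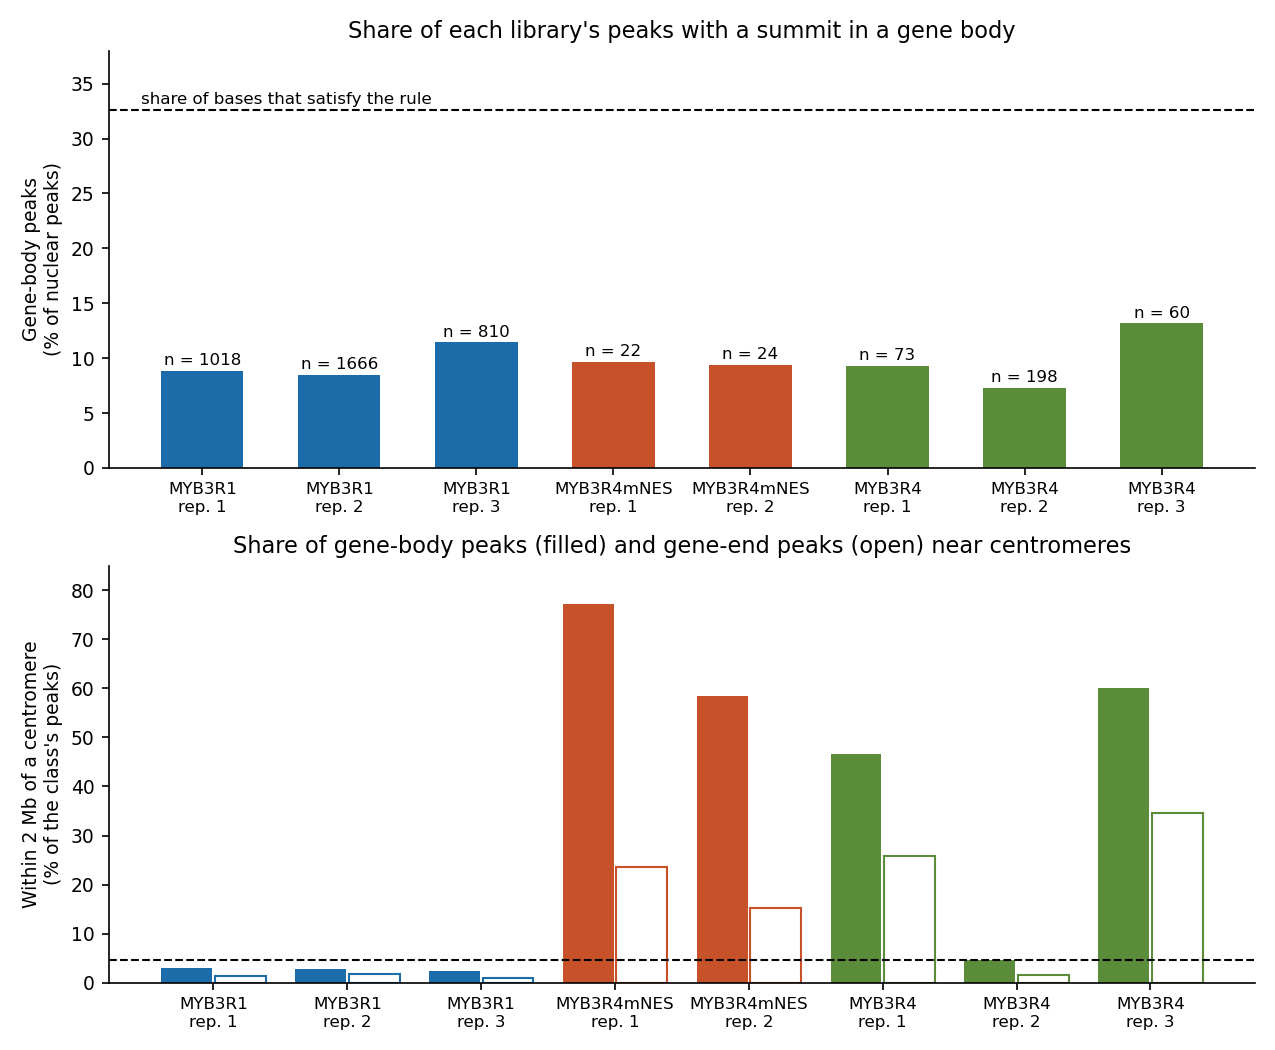
The upper panel shows gene-body peaks as a percent of the nuclear peaks of each library (bars, with their number), and the dashed line shows that 32.6% of the bases of chromosomes 1 to 5 satisfy the rule. The lower panel shows the percent of gene-body peaks (filled) and gene-end peaks (open) within 2 Mb of a centromere, with the share of rule bases there (4.66%) as a dashed line. All bars of the upper panel stand below the line, and in the lower panel 4 of the 5 MYB3R4mNES and MYB3R4 libraries stand far above it.

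Gene bodies held fewer summits than their length would give. The bases that satisfy the rule make up 32.6% of chromosomes 1 to 5, the bases of the gene-end class 41.9% and the rest 25.5%. Per Mb of their own bases, gene bodies held 26.2, 42.9 and 20.9 peaks in MYB3R1 replicates 1, 2 and 3, against 186.8, 315.5 and 116.5 at gene ends. In MYB3R4mNES they held 0.567 and 0.618 peaks per Mb, against 2.46 and 3.02 at gene ends. In MYB3R4 they held 1.88, 5.10 and 1.55 peaks per Mb, against 5.56, 39.7 and 5.60 at gene ends. Gene ends were thus 2.96 to 7.79 times as dense in peaks as gene bodies, in all 8 libraries.

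Gene-body peaks were weaker than gene-end peaks of the same library. Fold enrichment is the authors' own value for each peak at its summit, relative to input. No input labelled for MYB3R4 replicate 3 was among the samples, and which input its list was called against is not stated. The median fold enrichment of gene-body peaks was 2.81, 2.47 and 2.06 in MYB3R1 replicates 1, 2 and 3, against 3.05, 2.83 and 2.25 at gene ends. In MYB3R4mNES it was 1.67 and 2.28, against 2.51 and 2.97 at gene ends. In MYB3R4 it was 1.62, 2.01 and 1.63, against 2.07, 2.07 and 2.34 at gene ends. The log2 ratio of the medians, gene-body over gene-end, averaged -0.29 (SD 0.198, n = 8, from -0.58 to -0.04) and was below 0 in 8 of 8 libraries. This was beyond the spread between libraries (exact sign-flip test over libraries, two-sided, p = 0.0078, the smallest it can give). Within set A alone it was -0.18 and within set B alone -0.40, each with 4 libraries (exact p = 0.125, the smallest 4 libraries can give). The ratio in MYB3R1 minus that in MYB3R4 was 0.16 on the log2 scale, and in MYB3R4mNES minus that in MYB3R4 it was -0.17 (exact permutation tests, two-sided, p = 0.40 for both). Among the top 10% of peaks by fold enrichment, gene-body peaks were few. Of the gene-body peaks, 6.88%, 6.36% and 4.69% reached it in MYB3R1, 4.55% and 0% in MYB3R4mNES, and 1.37%, 3.54% and 5.0% in MYB3R4. Widths did not differ detectably: the log2 ratio of median widths was -0.0087 (exact sign-flip p = 0.836, below 0 in 5 of 8 libraries). Among peaks with a -log10 q of at least 10, however, gene-body peaks were wider, by 0.66 on the log2 scale (exact sign-flip p = 0.0078).

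**Figure D2:**
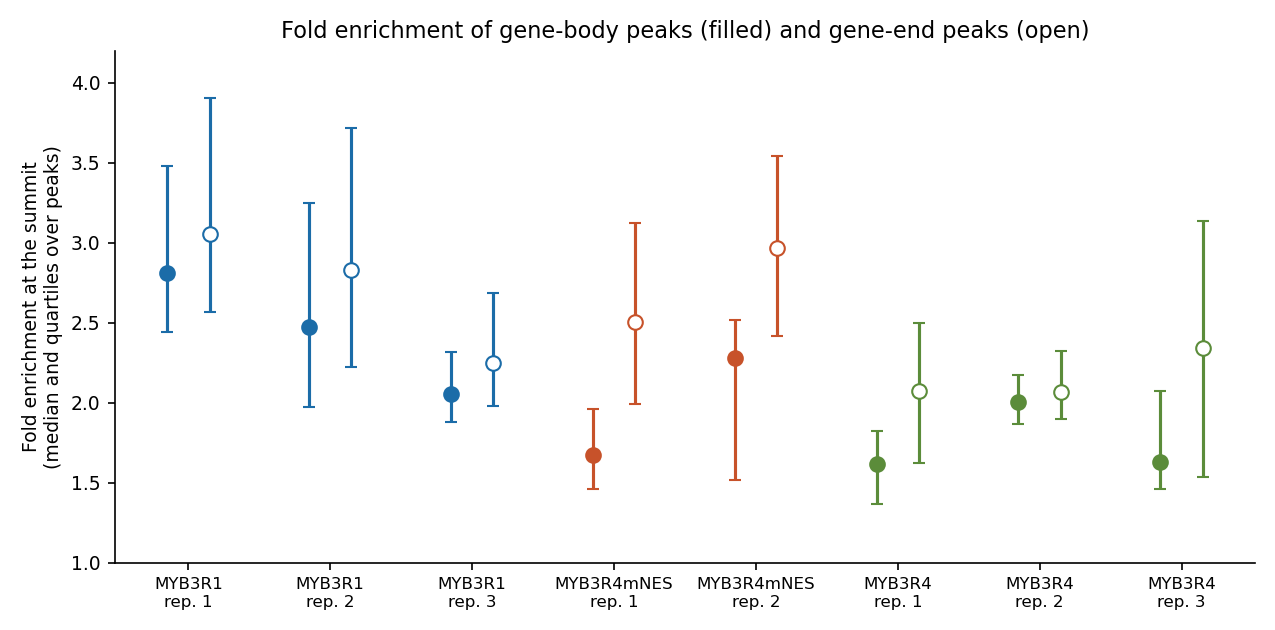
Median fold enrichment at the summit with quartiles over peaks, for gene-body peaks (filled) and gene-end peaks (open) of each library. The filled point stands below the open one in all 8 libraries, from 2.01 against 2.07 in MYB3R4 replicate 2 to 1.67 against 2.51 in MYB3R4mNES replicate 1.

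Gene-body summits crowded toward the gene ends. Of the MYB3R1 gene-body peaks, 37.3% had their summit 200 to 400 bp from the nearer gene end, where 12.3% of the bases that satisfy the rule lie. Beyond 1500 bp from both ends there were 9.85% of the MYB3R1 peaks and 25.8% of the bases. In MYB3R4mNES 23.9% of the peaks lay at 200 to 400 bp and 17.4% beyond 1500 bp. In MYB3R4 these shares were 24.8% and 19.3%. The share at 200 to 400 bp was above that of the bases in each of the 8 libraries, from 20.5% in MYB3R4 replicate 1 to 44.0% in MYB3R1 replicate 3. The reference table gives no strand, so the start and the end of a gene were not told apart. The distance of the summit to the nearer end had a median of 587.5, 698 and 452.5 bp in MYB3R1, 698 and 930.5 bp in MYB3R4mNES, and 868, 968.5 and 539 bp in MYB3R4, while the bases had a median of 1014 bp. MYB3R1 minus MYB3R4 was -212.5 bp between group means (exact permutation test, two-sided, p = 0.30), within the spread between libraries.

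Strength showed no common trend with depth in the gene. In MYB3R1 the median percentile of fold enrichment within the library was 40.1 at 200 to 400 bp from an end and 37.9 beyond 1500 bp. From 200 to 400 bp against 1000 to 1500 bp it was 42.3 and 36.1 in replicate 1, 42.8 and 33.9 in replicate 2, and 33.8 and 40.1 in replicate 3, so the replicates did not move one way. In MYB3R4mNES it was 48.4 (11 peaks) and 14.8 (12 peaks), with 46.7 beyond 1500 bp (8 peaks). In MYB3R4 it was 43.6 and 45.5, with 36.5 beyond 1500 bp. The values at the margin of the rule were also close. In MYB3R1 replicate 1, 144 peaks at 200 to 250 bp inside had a median fold enrichment of 2.87, against 2.93 for 218 peaks at 150 to 200 bp. In replicate 2 the medians were 2.54 just inside the rule (207 peaks) and 2.53 just outside it (323 peaks), and in replicate 3 they were 2.08 (124 peaks) and 2.13 (172 peaks). The MYB3R4mNES and MYB3R4 libraries held 1 to 20 peaks just inside.

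**Figure D3:**
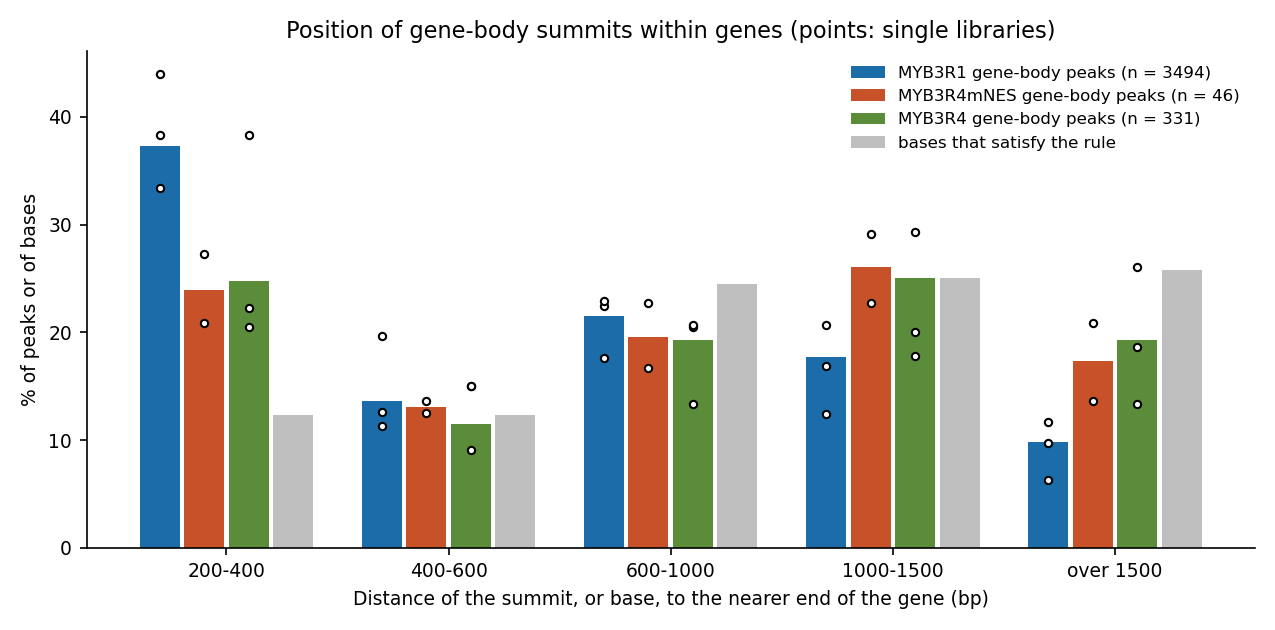
Percent of gene-body summits of each group, and of the bases that satisfy the rule (grey), by distance to the nearer gene end in bp, with open points for single libraries. At 200 to 400 bp all groups stand above the 12.3% of bases there, and beyond 1500 bp the 9.85% of MYB3R1 stand below the 25.8% of bases.

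Gene-body peaks were found again in other libraries of their group less often than gene-end peaks. The percent of gene-body peaks overlapped by 1 bp or more by any peak of another library of the group was 98.6, 51.8 and 99.6 in MYB3R1, against 99.6, 59.2 and 99.9 for gene-end peaks. In MYB3R4mNES it was 45.5 and 37.5, against 74.0 and 60.3. In MYB3R4 it was 61.6, 11.1 and 91.7, against 92.1, 12.4 and 93.9. Gene-body minus gene-end averaged -11.7 percentage points (SD 13.2, n = 8) and was below 0 in 8 of 8 libraries (exact sign-flip test, two-sided, p = 0.0078, the smallest it can give). The MYB3R1 lists are the longest, and the part of list length in these overlaps was not tested. MYB3R1 peaks also overlapped 11 of 22 and 20 of 24 of the MYB3R4mNES gene-body peaks (50% and 83.3%), against 81.3% and 89.4% of the gene-end peaks. For MYB3R4 these were 31.5%, 99.5% and 60.0%, against 79.1%, 97.7% and 72.5%. The mean difference was -19.1 points, below 0 in 4 of 5 libraries, and was not beyond the spread between libraries (exact sign-flip test, two-sided, p = 0.125, where 0.0625 is the smallest possible).

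Joining overlapping gene-body peaks over all libraries gave 2294 sites. Of these, 2022 held peaks of MYB3R1 libraries only, and 834 held peaks of MYB3R1 replicate 2 only, the longest list. MYB3R1 replicates 1, 2 and 3 also held 11478, 19655 and 7089 of all 42664 nuclear peaks. How many gene-end sites held MYB3R1 peaks only was not counted. Sites were joined from gene-body peaks alone, so a gene-end peak at the same place did not count as sharing. All 3 MYB3R1 libraries had a gene-body peak at 374 sites. At 177 sites a MYB3R1 library shared the site with a MYB3R4 or MYB3R4mNES library, and 95 sites had no gene-body peak of MYB3R1. At 350 sites with exactly 1 peak in each MYB3R1 library the 3 summits spanned a median of 99.5 bp, against 84 bp at 4668 such gene-end sites.

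Genes were called for a group when 2 or more of its libraries had a gene-body peak there. MYB3R1 had 884 such genes, which is 3.79% of the 23336 genes that can hold one. MYB3R4mNES had 6 (0.0257%) and MYB3R4 had 35 (0.15%). These 3 shares are the background against which the gene lists below are read. In MYB3R1 the count rests on every library, since it was 460 without replicate 1, 460 without replicate 2 and 734 without replicate 3. In MYB3R4 it was 14, 19 and 16 without replicates 1, 2 and 3. A body peak in all libraries of a group was found at 385 genes in MYB3R1 and at 7 in MYB3R4.

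No gene had a gene-body peak in all 8 libraries, and 6 had one in 7. Of these, AT5G01720, SKIP2 and GH9B1 lay on chromosome arms and the other 3 around centromeres. AT5G01720 had fold enrichments of 7.82, 7.36 and 3.497 in MYB3R1 replicates 1, 2 and 3. It had 2.68 in MYB3R4mNES replicate 2, with none listed in replicate 1, and 2.12, 2.52 and 2.78 in MYB3R4 replicates 1, 2 and 3. Its 7 summits lay within 15 bp of each other (chr5:266906-266921, TAIR10), 628 to 643 bp from the nearer gene end. SKIP2 (AT5G67250), which encodes an F-box protein, a substrate adaptor of ubiquitin ligases, had 9.04, 7.02 and 5.15 in MYB3R1. It had 2.29 in MYB3R4mNES replicate 2 and 1.75, 2.34 and 2.16 in MYB3R4. The 7 summits of SKIP2 lay within 77 bp (chr5:26833404-26833481). In both genes every MYB3R1 library stood above every library of the other groups, but folds of lists of different depth were not tested against each other.

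GH9B1 (AT1G70710), an endoglucanase of the cell wall, had 6.47, 6.01 and 3.01 in MYB3R1 replicates 1, 2 and 3. It had 2.47 in MYB3R4mNES replicate 2 and 1.87, 2.15 and 1.94 in MYB3R4. The peak lists put 2 or 3 separate gene-body peaks into GH9B1 in each MYB3R1 library. Among the genes with gene-body peaks in 6 libraries, CSLA02 (AT5G22740), a glucomannan synthase, had 5.68, 6.26 and 2.93 in MYB3R1, no gene-body peak in MYB3R4mNES, and 1.71, 2.61 and 1.98 in MYB3R4. Its summits were among the deepest of the named genes, 1937 to 2281 bp from the nearer end. BXL2 (AT1G02640), a xylosidase of the cell wall, had 5.07, 5.41 and 2.84 in MYB3R1, 2.20 in MYB3R4mNES replicate 2, and 2.38 and 2.13 in MYB3R4 replicates 2 and 3.

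TAA1 (AT1G70560), the aminotransferase that starts auxin synthesis from tryptophan, had gene-body peaks in 6 libraries. Its fold enrichments were 5.01, 3.88 and 2.27 in MYB3R1, 2.36 in MYB3R4mNES replicate 1, and 1.93 and 2.51 in MYB3R4 replicates 2 and 3. AT5G03050 had 5.07, 6.08 and 3.02 in MYB3R1, 2.47 in MYB3R4mNES replicate 2, and 2.32 and 2.38 in MYB3R4 replicates 2 and 3. AT5G10946 had 4.36, 4.99 and 2.82 in MYB3R1, 2.27 in MYB3R4mNES replicate 1, and 1.91 and 2.86 in MYB3R4 replicates 2 and 3. For TAA1, AT5G10946, BXL2 and AT5G03050, MYB3R4 replicate 1 had no gene-body peak and 1 of the 2 MYB3R4mNES libraries had one.

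**Figure D4:**
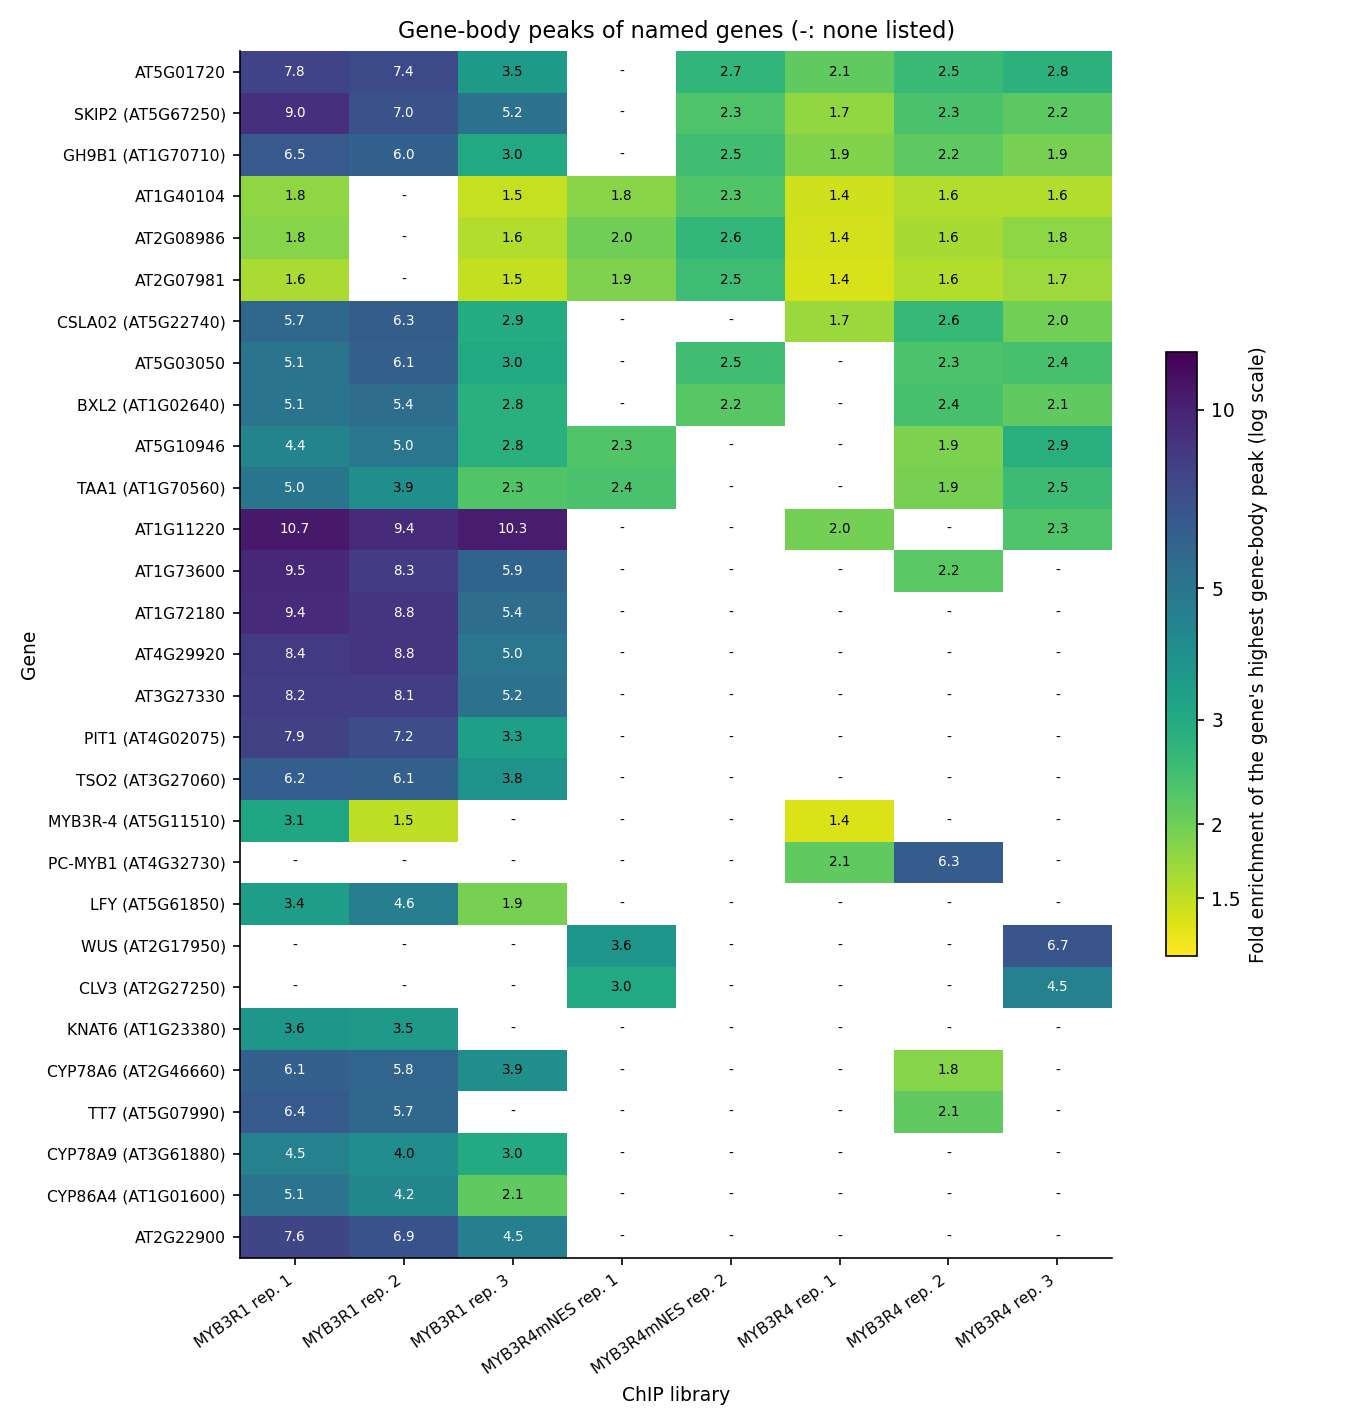
Fold enrichment of the highest gene-body peak of named genes (rows) in each ChIP library (columns), with colour on a log scale and a dash where none is listed. The MYB3R1 columns hold the highest values of most rows, up to 10.7 at AT1G11220. Part of the rows were chosen for strong MYB3R1 peaks or for peaks in MYB3R1 only, so their high MYB3R1 values follow from that choice. WUS, CLV3 and PC-MYB1 have values in MYB3R4mNES or MYB3R4 libraries only.

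Of the 8 genes with the strongest gene-body peaks in every MYB3R1 library, SKIP2 and AT5G01720 also had them in 4 of the 5 MYB3R4mNES and MYB3R4 libraries, and the other 6 in at most 2. AT1G11220 had 10.7, 9.40 and 10.3 in MYB3R1 replicates 1, 2 and 3, against 1.95 and 2.28 in MYB3R4 replicates 1 and 3. In each MYB3R1 library this peak covered the whole gene of 1600 bp. AT1G73600 had 9.52, 8.30 and 5.85 in MYB3R1 and 2.18 in MYB3R4 replicate 2. AT1G72180, listed as CEPR2, a receptor of C-terminally encoded peptides, had 9.40, 8.76 and 5.39 in MYB3R1, and its 3 summits lay within 23 bp (chr1:27164177-27164200). AT4G29920, listed as SMXL4, a gene of the SMAX1-like family, had 8.36, 8.82 and 4.96 in MYB3R1 with summits within 17 bp (chr4:14632804-14632821). AT3G27330 had 8.18, 8.14 and 5.15, and PIT1 (AT4G02075) 7.88, 7.17 and 3.32, in MYB3R1 replicates 1, 2 and 3. AT2G22900, not one of the 8 but named as a gene of MYB3R1 only, had 7.63, 6.91 and 4.53 there. These last 5 genes had no peak of any kind in or beside the gene in the MYB3R4mNES and MYB3R4 lists. All 3 MYB3R1 libraries had a gene-body peak at 385 genes (1.65% of 23336), and 237 of these had no peak of any kind in the others. The matching share for genes with MYB3R1 gene-end peaks was not counted. No gene had gene-body peaks in every MYB3R4mNES or every MYB3R4 library and no peak in the other groups. The MYB3R4mNES and MYB3R4 lists are far shorter, so a gene without a peak there is one not called at that depth.

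Genes of mitosis and cytokinesis, the best-known MYB3R targets, had almost no gene-body peaks. Of 42 listed G2/M genes that can hold one, 1 had a gene-body peak in any library, which is 2.38% against 9.09% of all such genes. That gene was CYCB1;4 (AT2G26760), a B-type cyclin, with a fold enrichment of 1.97 in MYB3R4 replicate 3. Its summit there lay 213 bp from a gene end, close to the margin of the rule. None of the 42 genes was called for MYB3R1, where the background is 3.79%. Of the same 42 genes, 39 had a gene-end peak in at least 2 MYB3R1 libraries (92.9%), against 45.9% of all 23336 genes. The peaks of the G2/M genes thus lay at gene ends and seldom inside, in lists that held gene-body peaks elsewhere.

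Genes of DNA replication were called for MYB3R1 at a share near that of all genes, on a count of 1. Of 28 S-phase genes that can hold a gene-body peak, 1 had one in any library (3.57%, against 9.09% of all genes). The same gene was called for MYB3R1 (3.57%, against 3.79%). Gene-end peaks in at least 2 MYB3R1 libraries were found at 26 of them (92.9%, against 45.9%). The gene with a gene-body peak was TSO2 (AT3G27060), which encodes a small subunit of ribonucleotide reductase, the enzyme that makes deoxyribonucleotides. Its gene-body peak had fold enrichments of 6.23, 6.12 and 3.76 in MYB3R1 replicates 1, 2 and 3, with none in the other groups. The 3 summits lay within 56 bp (chr3:9981351-9981407), only 213 to 269 bp from a gene end, close to the margin of the rule. In replicates 2 and 3 the peak covered the whole gene of 1780 bp, and in replicate 1 it covered 50.4% of it.

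Several regulators of the shoot meristem and the flower had gene-body peaks. Of 28 listed regulators 11 had one in at least 1 library (39.3%, against 9.09%), and 3 were called for MYB3R1 (10.7%, against 3.79%). LFY (AT5G61850), the floral identity gene LEAFY, had 3.39, 4.57 and 1.94 in MYB3R1 replicates 1, 2 and 3, 1084 to 1250 bp from the nearer end. KNAT6 (AT1G23380), a KNOX homeobox gene of the meristem, had 3.60 and 3.52 in MYB3R1 replicates 1 and 2. Its relative KNAT2 (AT1G70510) had 2.40 and 2.93 in the same libraries. AG (AT4G18960), the floral organ identity gene AGAMOUS, had 2.47 in MYB3R1 replicate 2 and 1.98 in MYB3R4 replicate 2. Gene-body peaks of 1 library only were found at SEP3 (2.13, MYB3R1 replicate 3), and at CLV1 (1.82), CUC3 (1.96), AFO (2.22) and ANT (1.74) in MYB3R1 replicate 2. These count toward the 11 but not toward the 3.

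WUS and CLV3, the stem cell regulators WUSCHEL and CLAVATA3 that act on each other in the meristem, had gene-body peaks in the same 2 libraries. WUS (AT2G17950) had a fold enrichment of 3.64 in MYB3R4mNES replicate 1 and 6.73 in MYB3R4 replicate 3, the 7th highest of that library. No gene-body peak was listed there in the other 6 libraries. CLV3 (AT2G27250) had 3.02 and 4.46 in these libraries and none in the others. The peaks followed the genes: at WUS they covered 80.5% (MYB3R4mNES replicate 1) and 92.5% (MYB3R4 replicate 3) of its 1941 bp, and at CLV3 77.4% and 83.9% of its 820 bp. Their spans were chr2:7809080-7810642 and chr2:7808981-7810776 at WUS, and chr2:11665042-11665676 and chr2:11665025-11665712 at CLV3. Both ends of each peak lay inside the gene, and both libraries belong to set B. MYB3R4mNES replicate 2 and MYB3R1 replicate 3, also of set B, had none there. Protein binding and DNA of another origin cannot be told apart at these genes from peak lists, so the fold enrichments there may not measure binding. What sets these 2 libraries apart was not tested. Without WUS and CLV3, 9 of the listed regulators had a gene-body peak.

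**Figure D5:**
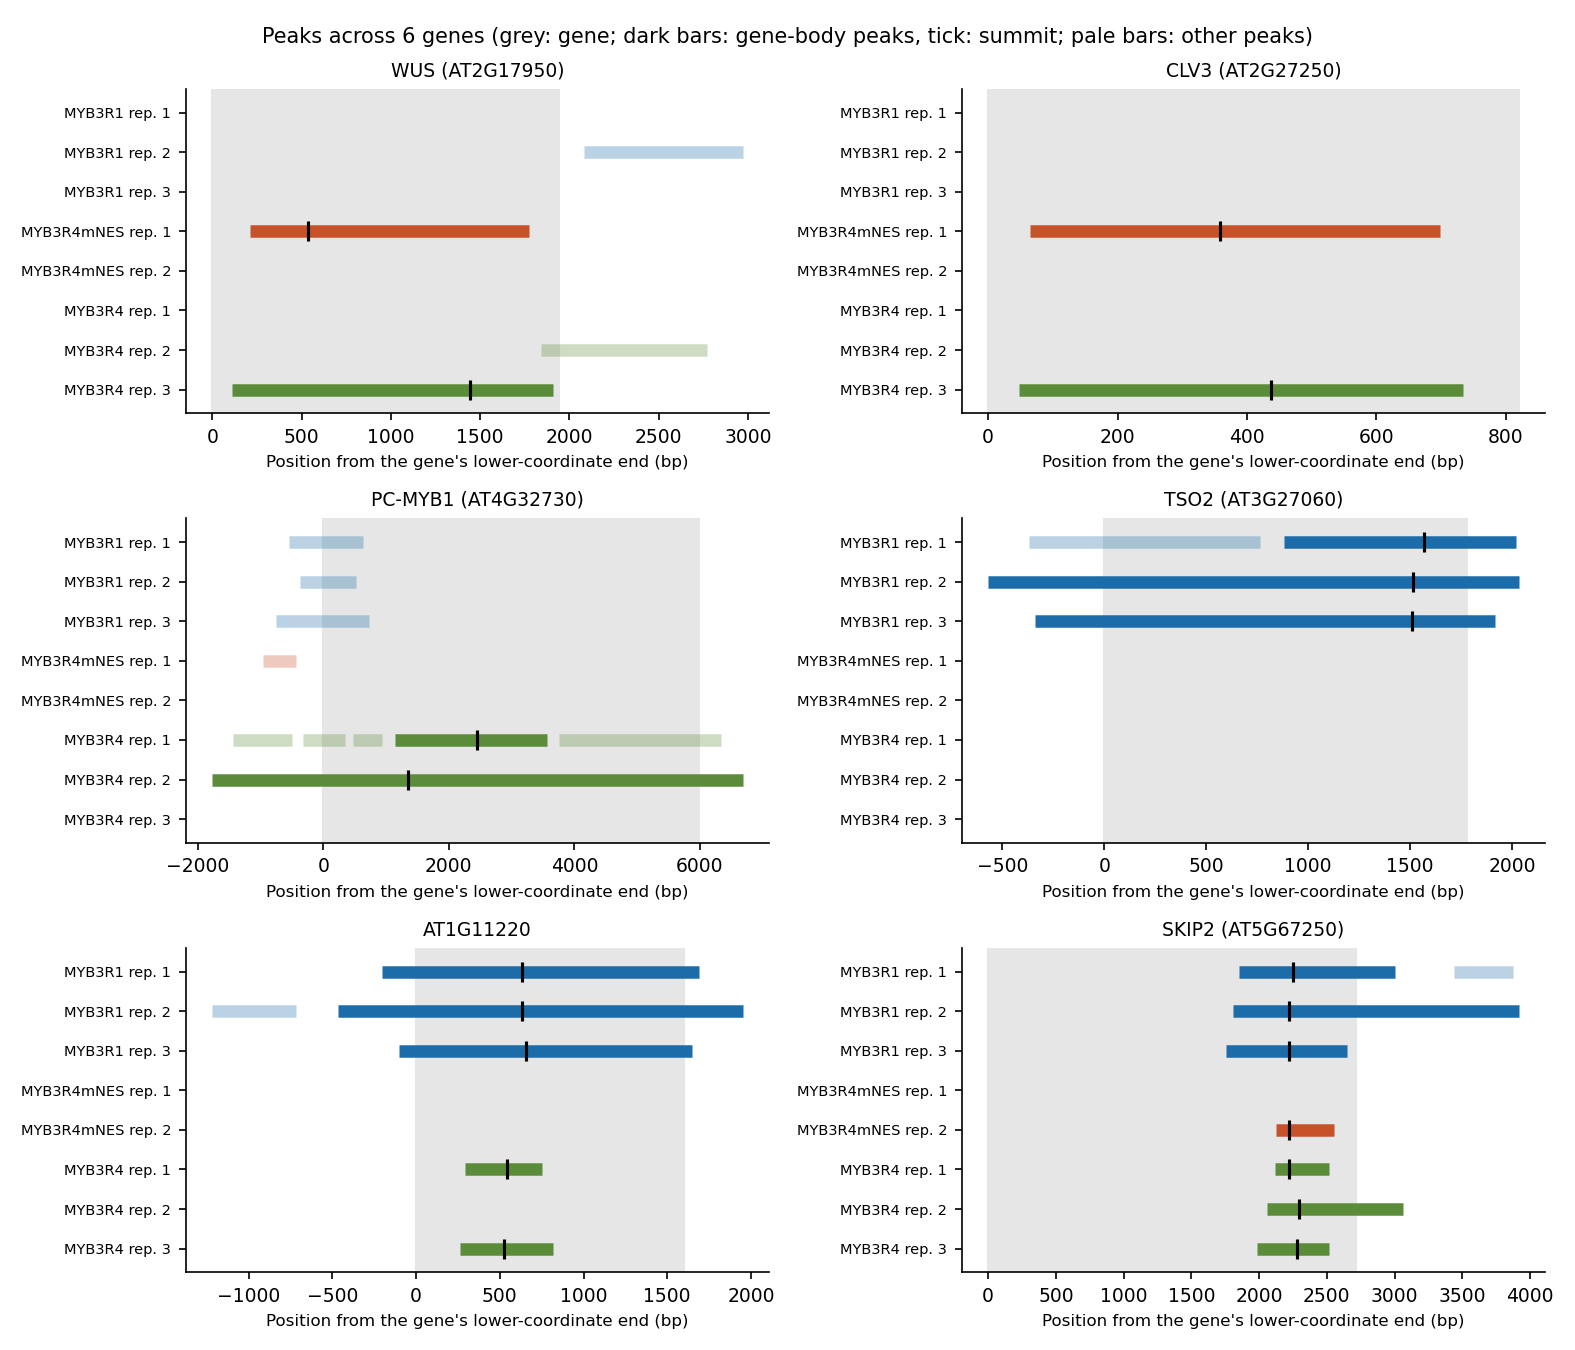
Position of peaks, in bp from the lower-coordinate end of the gene (grey), at 6 genes in each library, with gene-body peaks in dark bars, their summits as ticks, and other peaks in pale bars. The WUS and CLV3 peaks of MYB3R4mNES replicate 1 and MYB3R4 replicate 3 fill most of the gene, the peak of MYB3R4 replicate 2 spans all of PC-MYB1, and the summits at SKIP2 line up in 7 libraries.

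Of the MYB3R genes themselves, those of MYB3R1 and MYB3R4 held gene-body peaks, while MYB3R2, MYB3R-3 and MYB3R-5 held none. The gene of MYB3R1, listed as PC-MYB1 (AT4G32730), had no gene-body peak in any MYB3R1 library and 1 in each of 2 MYB3R4 libraries. In MYB3R4 replicate 2 a single peak of 8453 bp (chr4:15788365-15796817) covered the whole gene of 5982 bp, with a fold enrichment of 6.34, the 5th highest of that library. In MYB3R4 replicate 1 the gene-body peak had 2.12 and covered 40.4% of the gene, with 3 further peaks that reach into it. Here too, binding and DNA of another origin cannot be told apart from peak lists, and the call of this gene for MYB3R4 rests on these peaks. The gene of MYB3R4 (AT5G11510, listed as MYB3R-4) had gene-body peaks of 3.11 and 1.496 in MYB3R1 replicates 1 and 2 and of 1.36 in MYB3R4 replicate 1. Its gene-end peaks in MYB3R1 were higher, at 7.33, 7.25 and 5.09. The gene-body peak of MYB3R4 replicate 1 was 4768 bp wide and covered 83.4% of this gene. For that peak too, binding and DNA of another origin cannot be told apart from peak lists. Of the 18 listed MYB3R, E2F and DREAM complex genes, these 2 were the ones with a gene-body peak (11.1%, near the 9.09% of all genes).

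Lists found by keyword hold only genes with the word in a symbol or synonym, so they need not stand for whole families. The largest was that of cytochrome P450 genes, which encode oxidising enzymes of many pathways. Of 227 that can hold a gene-body peak, 34 had one in at least 1 library (14.98%, against 9.09%) and 20 were called for MYB3R1 (8.81%, against 3.79%). In all 3 MYB3R1 libraries 9 had one (3.96%, against 1.65% of all genes). They included CYP78A6, CYP78A8 and CYP78A9, of a family that promotes organ and seed growth. CYP78A6 (AT2G46660) had 6.11, 5.82 and 3.88 in MYB3R1 replicates 1, 2 and 3 and 1.84 in MYB3R4 replicate 2. CYP78A9 (AT3G61880) had 4.46, 3.98 and 2.99, and CYP78A8 had 2.75, 1.99 and 1.71, in MYB3R1 alone. CYP707A1 (3.42, 4.29 and 2.04) and CYP707A3 (2.69, 3.09 and 2.14), which break down abscisic acid, and FAH1 (3.05, 3.33 and 2.32), of lignin synthesis, also had peaks in all 3. CYP86A4 (AT1G01600), which hydroxylates fatty acids of cutin, had 5.13, 4.21 and 2.12. TT7 (AT5G07990), the flavonoid 3'-hydroxylase, had 6.41 and 5.67 in MYB3R1 replicates 1 and 2 and 2.12 in MYB3R4 replicate 2. Gene-end peaks in at least 2 MYB3R1 libraries were found at 63 of the 227 (27.8%), against 45.9% of all genes.

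In the other lists the counts were small. F-box genes had 6 of 30 in at least 1 library and 4 called for MYB3R1 (13.3%, against 3.79%). These were SKIP2, AT1G15670 (listed as KMD2; 3.36, 3.07 and 2.41), FBS1 (2.74, 2.99 and 2.13) and AUF1 (2.38 and 1.86 in replicates 1 and 3). Receptor kinase genes had 12 of 152 in at least 1 library (7.89%) and 2 called (1.32%). Extensin, proline-rich, glycine-rich and arabinogalactan protein genes had 12 of 83 (14.5%) and 3 called (3.61%). Of these 3, FLA2 was highest with 3.42, 4.27 and 2.84. Kinesin and myosin genes had 4 of 25 and 2 called, ribosomal protein genes 3 of 41 and 1 called, chromatin genes 4 of 59 and 1 called (CHR4), and disease resistance genes 1 of 13 and 0 called. Pentatricopeptide repeat genes had 0 of 12. Highly transcribed reference genes had 4 of 19 in at least 1 library, namely LOS2, ACT2, GAPC2 and ACT8, and 1 called for MYB3R1. That was LOS2 (AT2G36530), an enolase, with 5.50 and 3.04 in MYB3R1 replicates 1 and 3. These summits lay 222 and 243 bp from a gene end, and MYB3R1 replicate 2 had a gene-end peak of 5.64 at 190 bp. At ACT2, GAPC2 and ACT8 the summits lay 219, 222 and 244 bp from an end. All 4 genes were thus close to the margin of the rule. The 1 transposon-related gene found had none. No list had a member called for MYB3R4mNES, and the members called for MYB3R4 were SKIP2 and the MYB3R1 gene.

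In the MYB3R4mNES and MYB3R4 libraries host genes had a gene-end peak more often than all genes did, while in MYB3R1 the shares were close. A gene-end peak was also listed for 47.8%, 64.1% and 29.0% of the host genes in MYB3R1 replicates 1, 2 and 3, against 44.8%, 67.3% and 30.0% of all genes that can hold a gene-body peak. In MYB3R4mNES it was 35.3% and 20.0%, against 0.604% and 0.754%. In MYB3R4 it was 23.1%, 18.7% and 44.0%, against 1.27%, 9.94% and 1.22%. The difference averaged 15.8 percentage points and was below 0 in 2 of 8 libraries (both of MYB3R1). It lay beyond the spread between libraries (exact sign-flip test, two-sided, p = 0.0469). This comparison was not among those planned, and the mean rests on the MYB3R4mNES and MYB3R4 libraries. A single stretch of chromosome 2, described further on, held 16 of 22 and 13 of 24 gene-body peaks in MYB3R4mNES. In MYB3R4 it held 29 of 73, 3 of 198 and 35 of 60. The part of this stretch in the difference was not tested. Where a gene had both a gene-body and a gene-end peak, the gene-body peak was the higher one in 40.9%, 38.7% and 34.4% of 465, 993 and 227 genes in MYB3R1. In MYB3R4mNES it was higher in 5 of 6 and 2 of 4 genes, and in MYB3R4 in 9 of 15, 19 of 36 and 6 of 22 genes. Host genes had median lengths from 2600.5 bp (MYB3R1 replicate 3) to 3425 bp (MYB3R4mNES replicate 2), but a longer gene offers more bases to the rule. Per Mb of such bases and per library, MYB3R1 had 39.6 gene-body peaks in genes of up to 1500 bp, 44.2 in genes of 1500 to 2500 bp and 9.03 in genes over 6000 bp. The genes over 6000 bp held 4.67% of the MYB3R1 peaks and 15.5% of the bases. In MYB3R4mNES, with 46 peaks, the values for the same lengths were 1.22, 0.605 and 0.665, and in MYB3R4 4.39, 2.62 and 1.11. A gene-body summit lay inside a long noncoding or antisense RNA gene at 104 peaks (2.69%), against 1.21% of the bases that satisfy the rule.

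In the MYB3R4mNES libraries and in MYB3R4 replicates 1 and 3 much of the gene-body signal came from around the centromeres. Within 2 Mb of an approximate centromere lay 3.05%, 2.88% and 2.47% of the gene-body peaks in MYB3R1, 77.3% and 58.3% in MYB3R4mNES, and 46.6%, 4.55% and 60.0% in MYB3R4. For gene-end peaks these were 1.34%, 1.78% and 1.01%, 23.6% and 15.2%, and 25.9%, 1.56% and 34.6% in the same order, and 4.66% of the rule bases lie there. Gene-body minus gene-end averaged 18.8 percentage points, above 0 in 8 of 8 libraries (exact sign-flip test, two-sided, p = 0.0078, the smallest it can give). This comparison was chosen after the values were seen. MYB3R1 minus MYB3R4 was -34.2 points (exact permutation test, two-sided, p = 0.10, the smallest it can give), although MYB3R4 replicate 2 stood near the MYB3R1 libraries. MYB3R4mNES minus MYB3R4 was 30.8 points (exact permutation test, two-sided, p = 0.40).

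In those 4 libraries most of these peaks lay in a single stretch of chromosome 2, from 3.2 to 3.7 Mb, near where the Col-0 genome is known to hold a long copy of mitochondrial DNA. The stretch held 13, 0 and 6 gene-body peaks in MYB3R1, 16 and 13 in MYB3R4mNES, and 29, 3 and 35 in MYB3R4. The lists also held 72, 0 and 39 peaks on the organelle genomes in MYB3R1, 81 and 81 in MYB3R4mNES, and 121, 21 and 169 in MYB3R4. Organelle peaks and gene-body peaks of the stretch were thus fewest in MYB3R1 replicate 2 and most in MYB3R4 replicate 3, and the part of organelle DNA in these peaks was not tested. AT2G08986 held 23 gene-body peaks, with highest folds of 1.83 and 1.57 in MYB3R1 replicates 1 and 3, 1.99 and 2.64 in MYB3R4mNES, and 1.41, 1.63 and 1.79 in MYB3R4. AT2G07981 had 1.62 and 1.49 in MYB3R1 replicates 1 and 3, 1.88 and 2.48 in MYB3R4mNES, and 1.39, 1.57 and 1.69 in MYB3R4. AT1G40104, beside the centromere of chromosome 1, had 1.77 and 1.47 in MYB3R1 replicates 1 and 3, 1.83 and 2.27 in MYB3R4mNES, and 1.43, 1.58 and 1.58 in MYB3R4. None of the 3 had a gene-body peak in MYB3R1 replicate 2, the longest list. All 6 genes called for MYB3R4mNES were of these places (AT2G08986, AT2G07981, AT1G40104, AT2G07633, AT2G07718 and AT2G07698), and none was left when peaks within 2 Mb of centromeres were taken out.

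Away from the centromeres the share of MYB3R4mNES and MYB3R4 gene-body peaks that MYB3R1 peaks overlapped varied widely between libraries. Of 5 and 10 such gene-body peaks in MYB3R4mNES replicates 1 and 2, MYB3R1 peaks overlapped 3 and 10. Of 39, 189 and 24 in MYB3R4 replicates 1, 2 and 3, they overlapped 16, 188 and 22. The share was thus lowest in MYB3R4 replicate 1, at 41.0%, where 23 of the 39 had no MYB3R1 peak, and MYB3R4 replicate 2 supplied most of the peaks. Sites that no MYB3R1 peak overlapped and that 2 libraries shared were 3 in number: WUS, CLV3 and a site at UBQ13 (AT1G65350, a polyubiquitin gene) and the neighbouring AT1G65346 in MYB3R4 replicates 1 and 2 (chr1:24272480-24276477). With the stretch of chromosome 2 left out, gene-body peaks were 8.78%, 8.48% and 11.4% of the peaks in MYB3R1, 3.51% and 5.12% in MYB3R4mNES, and 6.73%, 7.21% and 8.33% in MYB3R4. The 3 groups then did not overlap. Every MYB3R1 library stood above every MYB3R4 library, by 2.12 points between means (exact permutation test, two-sided, p = 0.10, the smallest it can give), where the full lists had given -0.320 points. Both MYB3R4mNES libraries stood below every MYB3R4 library, with a difference between means of -3.11 points (exact permutation test, two-sided, p = 0.20, the smallest it can give), where the full lists had given -0.378 points. This setting was chosen after the values were seen. With all peaks within 2 Mb of centromeres left out, a planned setting, the shares were 8.75%, 8.40% and 11.4% in MYB3R1. They were 4.55% and 6.49% in MYB3R4mNES, and 12.8%, 7.20% and 10.4% in MYB3R4. MYB3R1 and MYB3R4 then overlapped, with a difference between means of -0.636 points (exact permutation test, two-sided, p = 0.80).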

How the data were processed

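Each of the 8 ChIP libraries had 1 deposited peak list. Per the file names, the authors called peaks against input and extended reads to 400 bp. The build is TAIR10. FastQC, Trimmomatic, Bowtie2 and Picard are named in the submitters' processing notes. No source used here names the peak caller. Per the deposited columns, checked on the values, a peak has a score of 10 times the -log10 q-value, a fold enrichment ratio at the summit, a -log10 p-value, a -log10 q-value and, as another deposited number, the summit's distance from the peak start. Lists began at a -log10 q of 1.33 to 2.43. The inputs were not used here. Depth is unknown, since the lists carry no read counts, and no counting interval was computed.

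Genes came from a table of the assembly TAIR10.1 (27444 nuclear coding genes, no strand or exons), used for names, distances and membership. Summits were placed by the stated rule and compared with all bases of chromosomes 1 to 5 placed the same way. Centromeres were taken at about 15, 4, 14, 4 and 12 Mb. Library values were compared by exact permutation tests and exact sign-flip tests, two-sided, at 0.05 (Python 3.11.15, numpy 2.4.6, pandas 2.3.3). The functions were tested on simulated data.

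The members, the gene lists and the tests were chosen with earlier results of these data known. Lists were written by identifier, or as keywords searched in symbols and synonyms of the table. The keyword for pentatricopeptide genes was corrected after it had also matched "suppressor". Named genes were those with gene-body peaks in the most libraries, the strongest present in every library of a group, up to 4 per list, those with the most peaks in 1 library, and those of 1 group only. UBQ13, KNAT2, AG and other list members with a value were named after their values were seen. Alternatives were stricter q-values, equal list lengths, other margins and overlaps, centromeres left out, each library left out, 1 naming set, and the replicate number as a block.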

Additional observations from a re-analysis of the deposited data

How the results depend on the processing

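The lower fold enrichment of gene-body peaks kept its sign and its side of the threshold under 9 of 12 settings. It was -0.18 and -0.40 (log2) in naming sets A and B alone, where 4 libraries cannot pass. It was 0.0055 with the 110 strongest peaks per library outside centromeres, a setting chosen after seeing the data that left 1 to 7 gene-body peaks a library. Leaving out each library gave -0.33 to -0.25. The lower overlap within groups was -4.61 points at -log10 q of at least 10 (exact p = 0.328), -8.47 with 227 peaks per library (exact p = 0.141), -10.9 and -25.6 in sets A and B, and -43.8 with the 110 strongest peaks. Leaving out each library gave -14.3 to -7.11 points, and -25.3 to -12.0 for overlap with MYB3R1. The cause of these shifts was not tested. The width ratio (log2) had no stable sign. It was 0.17 and 0.66 at -log10 q of at least 5 and 10 (exact p = 0.0859 and 0.0078), 0.60 with 227 peaks, 0.69 with 110 peaks, 0.025 with an inner margin of 500 bp, and 0.020 and 0.027 with outer margins of 500 and 2000 bp. Leaving out each library gave -0.033 to 0.019, positive without MYB3R1 replicate 3 (0.0012), MYB3R4mNES replicate 2 (0.019) or MYB3R4 replicate 2 (0.0018).

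Neither did the group differences in the share of gene-body peaks. MYB3R1 minus MYB3R4 was 1.40 points at -log10 q of at least 10, 0.385 in set A, and 2.12 without the chromosome 2 stretch. It was -0.636 without centromeres, -2.79 with 227 peaks and -1.73 in set B. It ranged from -1.63 to 1.303 with each library left out and turned positive without MYB3R1 replicates 1 (0.0402) or 2 (0.237) or MYB3R4 replicate 3 (1.303). MYB3R4mNES minus MYB3R4 was 0.0681 at -log10 q of at least 10, 3.45 with 227 peaks, 0.455 with 110, and 0.110 and 0.669 with the 500 bp inner and outer margins. It was -4.62 without centromeres and -3.11 without the stretch (exact p = 0.20 for both, the smallest possible), and -3.62 in set B. It ranged from -1.69 to 1.25 and turned positive without MYB3R4 replicate 3 (1.25). Deviations of same-numbered libraries over 2121 genes correlated at -0.0798 to 0.109. The MYB3R4mNES and MYB3R4 libraries had gene-body peaks at only 17 to 193 of these genes. These correlations therefore cannot show whether the replicate number pairs the libraries. With the number as a replicate block, the differences were -0.320 (MYB3R1, exact p = 0.75) and 1.25 points (MYB3R4mNES, exact p = 0.50).

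Counts of genes followed the number of peaks. MYB3R1 had 360 genes at -log10 q of at least 10, 7 with 227 peaks, 2 with 110, 498 and 513 with inner 500 and outer 2000 bp margins, 385 for every library, 2034 for at least 1, 383 without a gene-end peak, and 460 to 734 with each library left out. MYB3R4mNES had 3 at either q, 10 with the outer 500 bp margin, 0 without centromeres or with 110 peaks, 31 for at least 1 library, 2 without a gene-end peak and 1 without the stretch. It has no leave-one-out value, since 1 library would remain. MYB3R4 had 5 at -log10 q of at least 10 and with 227 peaks, 0 with 110, 21 and 22 with inner 500 and outer 2000 bp margins, 20 without centromeres, 21 without the stretch, 16 in set A, 7 for every library, 266 for at least 1, 21 without a gene-end peak, and 14 to 19 with each library left out.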

Other observations

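Peaks that span nearly a whole host gene were a further feature of the gene-body class, looked at after the values were seen. Gene-body peaks that covered at least 80% of their host numbered 13, 53 and 24 in MYB3R1 replicates 1, 2 and 3, 2 and 1 in MYB3R4mNES, and 11, 5 and 5 in MYB3R4. As a share this was 1.28%, 3.18% and 2.96% in MYB3R1, 9.09% and 4.17% in MYB3R4mNES, and 15.1%, 2.53% and 8.33% in MYB3R4. Away from the centromeres there were 11, 52 and 23 in MYB3R1, 1 and 0 in MYB3R4mNES, and 1, 2 and 2 in MYB3R4. The median gene-body peak covered 16.9% to 28.7% of its host.

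Some genes held several separate gene-body peaks in 1 library. Among them were AT2G08986 (23 over 7 libraries) and AT2G07718 (8 over 4 libraries), both in the chromosome 2 stretch. PMR6 (AT3G54920), a pectate lyase-like gene, had its highest peak at 4.21, 5.12 and 2.44 in MYB3R1 replicates 1, 2 and 3 and at 2.06 in MYB3R4 replicate 2. OPT4 (AT5G64410), a transporter of the oligopeptide family, had 2.96, 2.71 and 1.92 in MYB3R1 and none elsewhere. HEXO3 (AT1G65590), a hexosaminidase, had 2.43, 2.93 and 1.80 in MYB3R1 and 1.95 in MYB3R4 replicate 2. Over all libraries PMR6, OPT4 and HEXO3 held 7, 5 and 6 gene-body peaks. At HEXO3 only MYB3R1 replicate 2 had more than 1.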
